A study of Homo sapiens with 6 samples.

Results

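The pentose phosphate pathway and the synthesis of phosphoribosyl pyrophosphate (PRPP) were followed in A-498 cells, an established human renal cell carcinoma line, after zebularine. The members were 9 genes, of 11963 with a probe set of their own, listed by name for their role in the pathway, a list selected on knowledge of earlier results from the same contrast. They comprised PGD and PGLS of the oxidative branch, TKT, TKTL1, TALDO1, RPIA and RPE of the non-oxidative branch, and the PRPP synthetases PRPS1 and PRPS2. All 13 probe sets annotated to 1 of these genes and to no other gene were taken, of 22277 on the array. A further 1, annotated to both RPE and RPEL1, was left out. It was bright enough to test, and its values are not given here. Since the list was drawn up with this contrast in view, the differences and p-values of the members describe where they stood in a fit over all probe sets and are no independent evidence.

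The series asked which transcripts change when A-498 cells are exposed to zebularine, a cytidine analogue that inhibits DNA methyltransferases. In the zebularine group, 3 cultures were kept for 120 h with 1000 µM of the drug, and in the untreated group 3 cultures of the same line were kept for 120 h without it. Cells of both groups were split and given new medium on days 3 and 5, and total RNA with an integrity number above 9 was labelled for Affymetrix arrays, 1 array per culture. The titles call the replicates biological and number them 1 to 3 in each group, and the arrays of 1 number carry the same experiment name. All cultures were of a single cell line, so every p-value sets a difference against variation among cultures of that line alone. Where the replicate number is fitted as a block, the variation used is what remains after differences between replicate numbers are removed.

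Glucose 6-phosphate enters the oxidative branch, which yields NADPH for reductive synthesis and antioxidant defence and ends in ribulose 5-phosphate. The non-oxidative branch interconverts sugar phosphates reversibly, so that ribose 5-phosphate can be drawn from glycolytic intermediates or returned to them. PRPP synthetases join ribose 5-phosphate to pyrophosphate from ATP, and the product is used to build purine, pyrimidine and nicotinamide nucleotides.

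DNA methyltransferases act on cytosine in CpG dinucleotides, so the starts of the genes on which the results turn are shown with every CpG in capitals. Each stretch runs from 250 bases before to 50 bases after a gene start of RefSeq's GRCh38.p14 annotation, 5′ to 3′ on the gene's own strand. TKT, which showed the largest difference, is given at chr3:53255973-53256272 on the minus strand. PGD is given at chr1:10398814-10399113 on the plus strand. TKTL1, the dim relative of TKT, has 2 starts on the plus strand, at chrX:154295545-154295844 and chrX:154304920-154305219.
TKT: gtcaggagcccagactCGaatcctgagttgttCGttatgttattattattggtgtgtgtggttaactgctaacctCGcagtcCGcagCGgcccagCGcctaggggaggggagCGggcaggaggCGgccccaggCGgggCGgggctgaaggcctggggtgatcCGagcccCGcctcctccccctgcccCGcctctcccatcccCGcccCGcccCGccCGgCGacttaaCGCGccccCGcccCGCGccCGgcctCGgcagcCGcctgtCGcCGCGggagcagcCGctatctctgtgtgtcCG
PGD: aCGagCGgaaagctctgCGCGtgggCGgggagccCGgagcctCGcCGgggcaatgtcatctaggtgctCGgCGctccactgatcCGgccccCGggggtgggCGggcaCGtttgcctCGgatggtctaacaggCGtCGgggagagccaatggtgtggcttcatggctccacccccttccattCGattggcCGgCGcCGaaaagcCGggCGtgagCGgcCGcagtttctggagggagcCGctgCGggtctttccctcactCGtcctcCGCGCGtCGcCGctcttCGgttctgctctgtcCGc
TKTL1, first start: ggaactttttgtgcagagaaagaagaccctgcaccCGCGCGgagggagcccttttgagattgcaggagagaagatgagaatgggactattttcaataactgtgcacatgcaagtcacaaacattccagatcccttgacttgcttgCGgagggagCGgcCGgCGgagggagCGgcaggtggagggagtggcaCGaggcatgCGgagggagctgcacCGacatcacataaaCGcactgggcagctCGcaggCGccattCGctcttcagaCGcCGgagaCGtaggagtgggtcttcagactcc
TKTL1, second start: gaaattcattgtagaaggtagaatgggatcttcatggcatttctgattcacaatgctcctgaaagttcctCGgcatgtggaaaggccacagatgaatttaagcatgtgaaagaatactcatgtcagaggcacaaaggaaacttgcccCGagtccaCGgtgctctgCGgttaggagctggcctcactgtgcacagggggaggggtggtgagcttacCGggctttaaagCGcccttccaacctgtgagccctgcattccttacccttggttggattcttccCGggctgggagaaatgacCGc

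RefSeq's table gave 10 start regions for all 9 members. The TKT region held 31 CpG and the PGD region 35, more than 79.3% and 85.9% of the 35116 start regions in the table, whose median was 14. The 2 regions of TKTL1 held 18 and 8. TALDO1 had 44, the highest count among the members, and RPIA 29, PGLS 27, RPE 24, PRPS2 23 and PRPS1 22. The members that differed little between groups, RPIA, RPE and PRPS2, had start regions with more CpG than the table's median, as did TKT and PGD. The letters TGACNNNGC, the core of the antioxidant response element, were searched on both strands. They occurred in the regions of PGD and RPE, 2 of 10, against 13.3% of all start regions, and were not found in that of TKT. No methylation was measured, so these counts describe sequence alone.

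Signals are linear values of MAS5, the array maker's summary of the probes of a set, and are not comparable between different probe sets. Differences are given as zebularine minus untreated on the scale log2(signal + 16.34), which understates the change of dim genes, with limma's standard error. Testing was limited to probe sets with a signal of 78.5 or more on at least 3 of the 6 arrays. Of the 13 member probe sets 11 passed, and both of TKTL1 did not. Array medians ran from 117.9 to 140.8. Both arrays of replicate 3 had lower maxima, 28720.5 on the zebularine and 31176.4 on the untreated array, against 66289.9 to 71174.1 on the other 4. Ratios of 3′ to 5′ signal of GAPDH and ACTB serve as signs of RNA integrity. That of GAPDH was 1.34, 1.16 and 1.01 on zebularine arrays 1, 2 and 3 and 1.52, 1.19 and 1.07 on the untreated arrays. That of ACTB was 5.25, 2.06 and 1.49 on the zebularine arrays and 3.1, 2.38 and 1.71 on the untreated arrays. The GAPDH ratio was lower on the zebularine array of each pair, while the ACTB ratio was higher with zebularine in pair 1 and lower in pairs 2 and 3, and their part in the results was not tested. Of 7 genes listed as markers of a kidney carcinoma line, CA9 had no probe set annotated to it alone. The other 6, PAX8, PAX2, KRT8, KRT18, VIM and CDH6, were all bright enough to test. Of these 6, 5 were lower on average after zebularine and VIM was higher, by 0.21. Their median difference was -0.36. CDH6, a cadherin of kidney epithelium, was the 1 called, with 174.5, 102.8 and 209.1 on zebularine arrays, against 1407.4, 2209.0 and 584.4 on untreated arrays. Its difference of -2.85 ± 0.42 (limma, adjusted p = 0.0206, with the block 0.00392) was larger in size than any of the tested members', and its part in their results was not tested. The CDH6 call was lost without untreated 1, without zebularine 2 and without the mean-variance trend (limma, adjusted p = 0.0539, 0.152 and 0.104). Of 11 markers of leukocytes, endothelium, fibroblasts and muscle, 10 were not bright enough to test, with no signal above 99.5. The exception was the collagen gene COL1A1, with 580.0, 246.6 and 367.8 on zebularine arrays, against 276.8, 183.3 and 130.3 on untreated arrays. Its difference was 0.94 ± 0.37 (limma, adjusted p = 0.313, with the block 0.0816). The summed signal of all 11 was 684.6 to 958.4 on zebularine arrays and 526.6 to 687.5 on untreated arrays. COL1A1 was the brightest part of that sum on every array, so the sum does not show that the other 10 rose.

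TKT, the transketolase that moves ketol units between sugar phosphates in the non-oxidative branch, fell to 0.436 and 0.451 times its untreated mean signal at its 2 probe sets. At 208699_x_at the signal was 3994.4, 4911.9 and 4320.3 on zebularine arrays 1, 2 and 3, against 9652.4, 8800.4 and 11872.7 on the untreated arrays. At 208700_s_at it was 7389.2, 5898.0 and 6616.8 on the zebularine arrays, against 13926.5, 13537.5 and 16690.2 on the untreated arrays. At both probe sets every zebularine array lay below every untreated array, and the gap between the groups was wider than the spread within either.

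The 208699_x_at mean was 4409 ± 465 in zebularine and 10108 ± 1586 in untreated cultures (SD, n = 3 each). The 208700_s_at mean was 6635 ± 746 in zebularine and 14718 ± 1719 in untreated cultures. On the log2 scale TKT fell by 1.19 ± 0.24 at the first and by 1.15 ± 0.23 at the second (limma SE; Benjamini-Hochberg adjusted p = 0.0474 and 0.0482 over all probe sets). A lower TKT signal in bulk RNA can come from less RNA per cell or from fewer cells that express the gene, and these cannot be told apart here. The replicate numbers paired the arrays, and with the replicate as a block limma gave the same differences adjusted p-values of 0.00368 and 0.00208. In replicate pairs 1, 2 and 3 the differences were -1.27, -0.84 and -1.45 at 208699_x_at and -0.91, -1.20 and -1.33 at 208700_s_at.

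Among all tested probe sets, 1.93% had a lower difference than TKT's 208699_x_at and 2.23% a lower one than 208700_s_at. The TKT difference stayed between -1.28 and -1.05 in the 13 alternatives tried, but the call without the block was lost in 9 of them at 208699_x_at and in 10 at 208700_s_at. Without untreated 1, zebularine 1, zebularine 2, untreated 3 or zebularine 3, limma gave 208699_x_at differences of -1.22, -1.12, -1.27, -1.07 and -1.18 with adjusted p = 0.132, 0.0939, 0.182, 0.228 and 0.122. For 208700_s_at the call was also lost without untreated 2, at -1.20 (limma, adjusted p = 0.0634), and its adjusted p in the other 5 ran from 0.0741 to 0.228. Probe sets ending in _s_at and _x_at can bind related transcripts, and the TKT fall was seen at 1 of each kind.

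**Figure D1:**
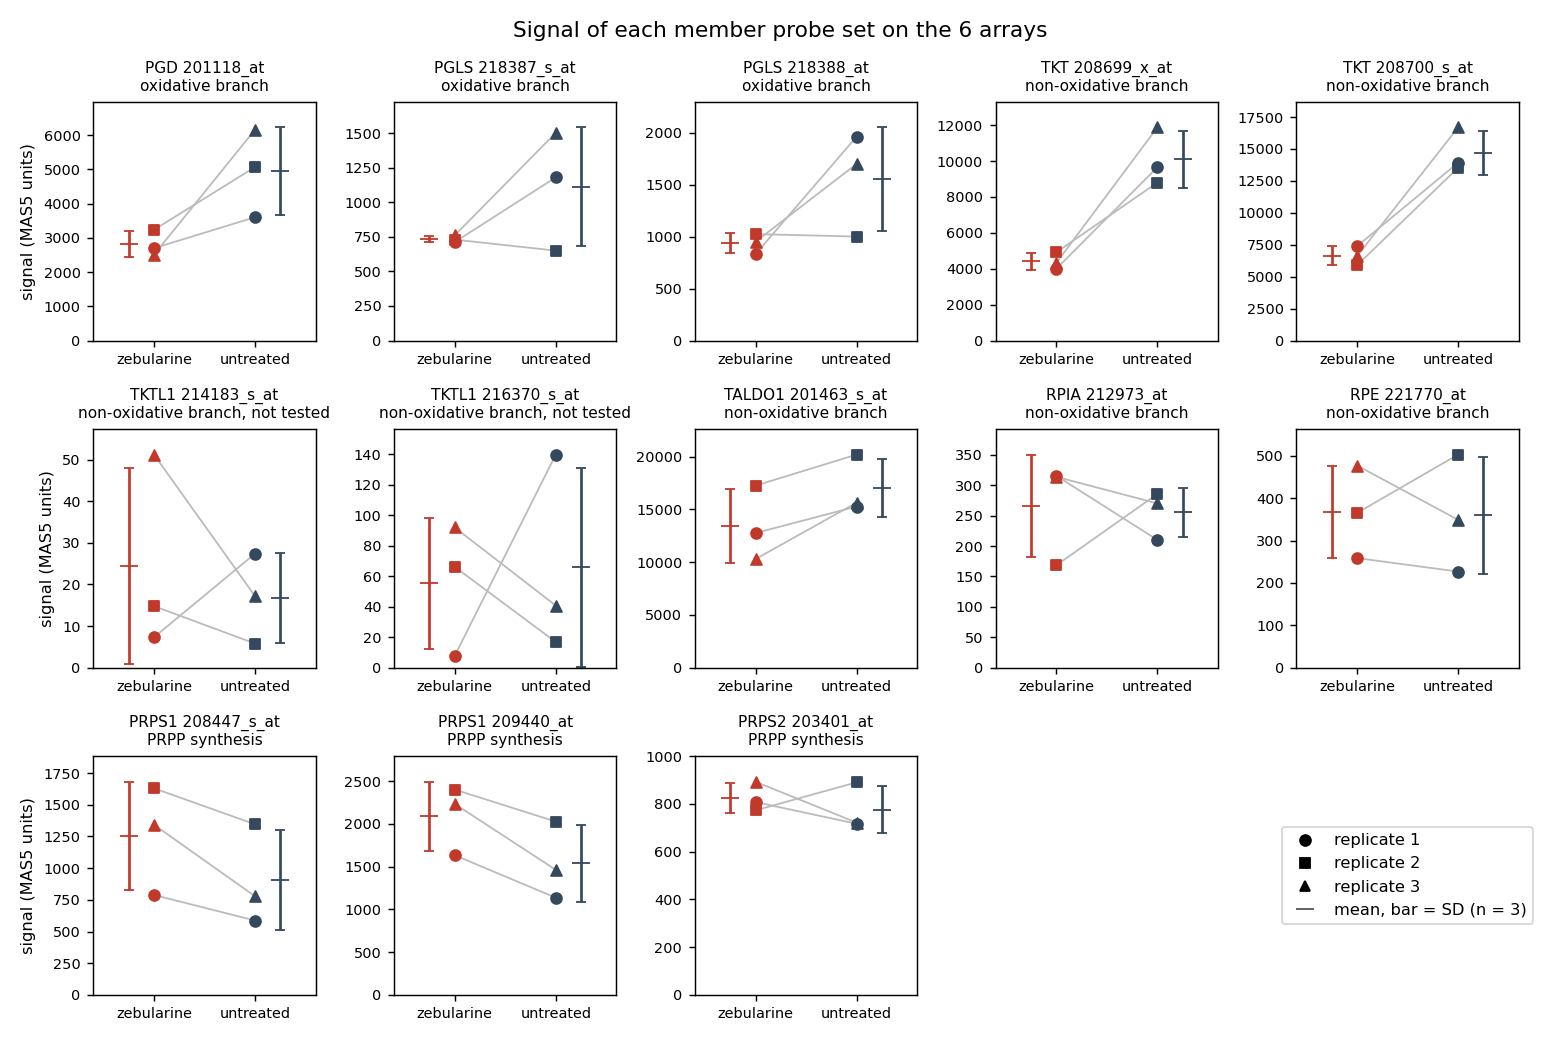
Linear MAS5 signal (vertical axis, from 0) of the 13 member probe sets on the zebularine arrays (red, left) and untreated arrays (dark, right), with a grey line joining the arrays of 1 replicate number and bars for mean ± SD (n = 3). The groups separate for TKT at both probe sets and for PGD, and overlap for the other 10 probe sets.

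PGD, the 6-phosphogluconate dehydrogenase that makes NADPH in the oxidative branch, was lower on all zebularine arrays. Its signal was 2697.6, 3235.3 and 2505.8 on zebularine arrays 1, 2 and 3, and 3604.0, 5068.5 and 6161.2 on the untreated arrays. The groups did not overlap, and the untreated arrays were spread more widely than the zebularine arrays. The means were 2813 ± 378 in zebularine and 4945 ± 1283 in untreated cultures (SD, n = 3 each). The log2 difference was -0.78 ± 0.26 and did not pass limma without the block (adjusted p = 0.240), while with the block it did (adjusted p = 0.0445). The pair differences were -0.42, -0.65 and -1.29, the smallest in replicate 1 and the largest in replicate 3. Without untreated 3 the PGD difference was -0.61, and without untreated 1 it was -0.99.

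PGLS, the lactonase that acts between the dehydrogenase steps of the oxidative branch, was lower after zebularine in replicates 1 and 3 and about level in replicate 2. At 218388_at the signal was 830.7, 1023.6 and 949.7 on zebularine arrays, against 1960.4, 999.7 and 1698.3 on untreated arrays. At 218387_s_at it was 712.4, 730.2 and 761.3 on zebularine arrays, against 1180.9, 650.6 and 1503.7 on untreated arrays. The zebularine arrays lay close together at both probe sets, and untreated 2 was the array on which the groups overlapped. The pair differences were -1.22, 0.03 and -0.83 at 218388_at and -0.72, 0.16 and -0.97 at 218387_s_at. Neither mean difference passed, at -0.67 ± 0.28 and -0.51 ± 0.30 (adjusted p = 0.358 and 0.529 in limma without the block, 0.153 and 0.279 with it).

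TALDO1, the transaldolase that moves dihydroxyacetone units in the non-oxidative branch, was lower on the zebularine array of each pair by smaller amounts. Its signal was 12763.5, 17258.9 and 10295.8 on zebularine arrays, against 15279.6, 20203.9 and 15644.8 on untreated arrays. The groups overlapped, since zebularine 2 lay above untreated 1 and 3, and replicate 2 was the brightest in each group. The pair differences were -0.26, -0.23 and -0.60, with a mean of -0.36 ± 0.26 (adjusted p = 0.611 in limma without the block, 0.133 with it).

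RPIA and RPE, the isomerase and the epimerase that turn ribulose 5-phosphate into ribose 5-phosphate and xylulose 5-phosphate, kept no direction across the replicates. RPIA had signals of 315.6, 168.4 and 313.9 on zebularine arrays, against 210.2, 285.7 and 270.1 on untreated arrays. RPE had 258.6, 365.2 and 477.1 on zebularine arrays, against 226.8, 502.9 and 348.9 on untreated arrays. Both genes were higher with zebularine in replicates 1 and 3 and lower in replicate 2, by pair differences of 0.55, -0.71 and 0.21 for RPIA and 0.18, -0.44 and 0.43 for RPE. The mean differences were 0.02 ± 0.32 and 0.06 ± 0.34 (limma, adjusted p = 0.991 and 0.968), smaller than their standard errors.

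TKTL1, a transketolase-like gene, was dim on every array. At 214183_s_at the signal was 7.3, 14.8 and 51.2 on zebularine arrays, against 27.4, 5.8 and 17.2 on untreated arrays. At 216370_s_at it was 7.8, 66.1 and 91.9 on zebularine arrays, against 139.7, 16.8 and 40.7 on untreated arrays. The array with the highest signal was in the zebularine group for the first probe set and in the untreated group for the second. Of these 12 values 2 reached the filter level of 78.5, 1 in each group, so no difference was tested.

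PRPS1, which encodes a PRPP synthetase, was higher on the zebularine array of each pair at both of its probe sets without passing the test. At 209440_at the signal was 1633.6, 2401.5 and 2233.6 on zebularine arrays, against 1136.5, 2027.1 and 1462.7 on untreated arrays. At 208447_s_at it was 788.4, 1630.3 and 1343.0 on zebularine arrays, against 586.8, 1346.1 and 778.2 on untreated arrays. The groups overlapped at both probe sets, since the arrays of replicate 2 were brightest and those of replicate 1 dimmest in each group. The pair differences were 0.52, 0.24 and 0.61 at 209440_at and 0.42, 0.27 and 0.77 at 208447_s_at. Their means were 0.46 ± 0.28 and 0.49 ± 0.35 (adjusted p = 0.537 and 0.602 in limma without the block, 0.204 and 0.218 with it).

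PRPS2, the second PRPP synthetase gene, had signals of 808.0, 773.3 and 893.1 on zebularine arrays, against 717.0, 890.7 and 721.8 on untreated arrays. The groups overlapped and the pair differences were 0.17, -0.20 and 0.30. The mean difference was 0.09 ± 0.24 (limma, adjusted p = 0.909), which was not tested against that of PRPS1.

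**Figure D2:**
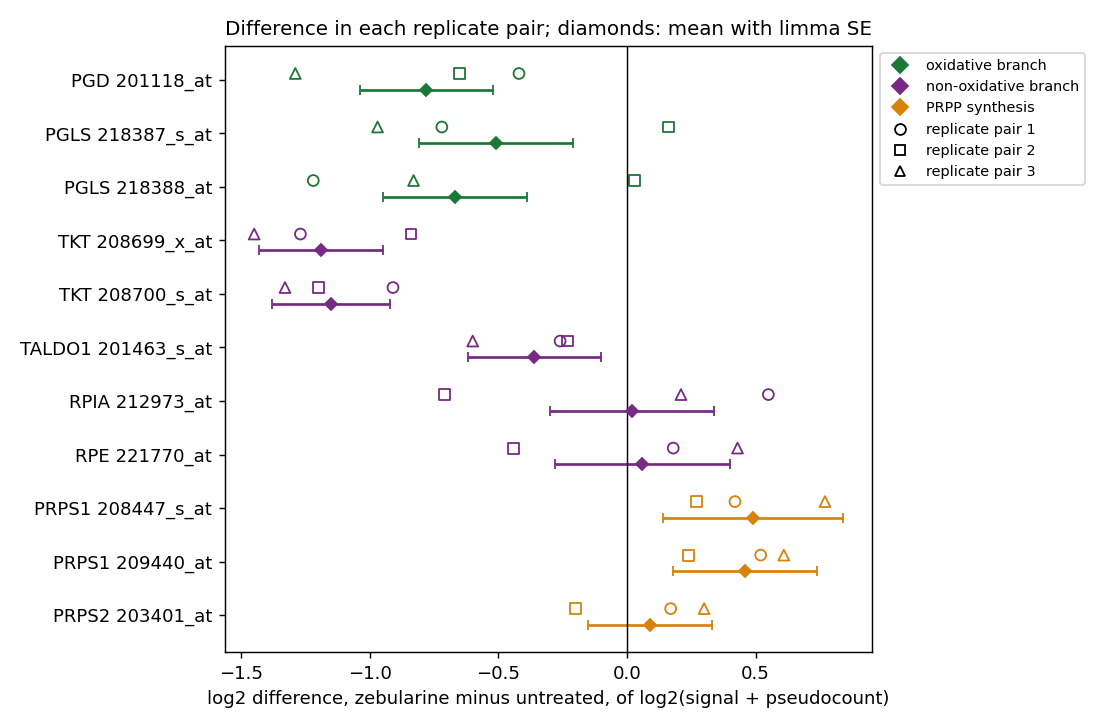
Log2 difference (horizontal axis, zebularine minus untreated) of the 11 tested member probe sets in each replicate pair (open symbols) and as the mean with limma's standard error without the block (diamonds), coloured by role. Both TKT probe sets lie between -1.45 and -0.84 in all pairs, PGLS is near 0 in pair 2, and both PRPS1 probe sets lie between 0.24 and 0.77.

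By role, the median difference was -0.67 over the 3 probe sets of the oxidative branch, -0.36 over the 5 tested probe sets of the non-oxidative branch and 0.46 over the 3 of PRPP synthesis. Over all 13548 tested probe sets it was -0.01. In replicate pairs 1, 2 and 3 the median was -0.72, 0.03 and -0.97 for the oxidative branch. PGLS holds 2 of the 3 probe sets of that branch and gave the 0.03, while PGD differed by -0.65 in replicate 2. The median was -0.26, -0.71 and -0.60 for the non-oxidative branch and 0.42, 0.24 and 0.61 for PRPP synthesis. The non-oxidative branch was split, with TKT at -1.19 and -1.15, TALDO1 at -0.36, and RPIA and RPE at 0.02 and 0.06. Probe sets of 1 gene share their transcript, so the 11 values stand for 8 genes.

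Without the block limma called 2 of the 11 tested member probe sets, both of TKT and both lower, where 0.620% of all tested probe sets were called and 0.295% were called lower. No member was called higher. An unadjusted p under 0.05 was found for 4 member probe sets, against 1704 of all 13548 tested probe sets. These 4 were both probe sets of TKT, that of PGD and 218388_at of PGLS. With the replicate as a block limma called 3, again all lower, by the addition of PGD. In that fit 4.23% of all tested probe sets were called and 2.32% were called lower. All zebularine arrays lay below all untreated arrays for 3 member probe sets, a pattern found in 8.88% of all tested probe sets, and above them for none, where the share of all was 8.72%. The difference was negative in all 3 pairs for 4 members, against 21.8% of all tested probe sets, and positive in all 3 pairs for the 2 probe sets of PRPS1, against 20.9%. As the list was made with this contrast known, nothing is read from these shares.

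The genes listed around the pathway more often had negative than positive differences, and none passed the test. They formed 6 related lists of 49 genes, set out by function with earlier results of these data known. Of the 41 tested, 31 were lower on average after zebularine, against 4027 of all 7939 tested genes. As with the members, nothing is read from these shares. Here limma called 0 of the 41, with or without the block. Without it 5 had an unadjusted p under 0.05, against 1041 of all 7939 tested genes. Where a gene had several tested probe sets, the one of highest mean signal stood for it. The median difference of all 7939 tested genes was -0.01.

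Other enzymes and regulators of pentose and ribose metabolism had a median difference of -0.26, with 4 of 6 tested genes lower. DERA, the deoxyribose-phosphate aldolase, differed by 0.09 ± 0.23, and PRPSAP1, a partner protein of the PRPP synthetases, by -0.17 ± 0.25 (limma's adjusted p = 0.909 and 0.823). H6PD, which carries out the first steps of the oxidative branch inside the endoplasmic reticulum, was picked out after its values were seen. It averaged 198 ± 64.5 in zebularine and 338 ± 127 in untreated cultures. Its pair differences were -0.78, -0.35 and -0.99 (limma's adjusted p = 0.425, with the block 0.157).

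Enzymes that use PRPP did not move one way. Of 6 tested phosphoribosyltransferase genes 3 were lower and 3 higher, with a median of -0.09. NAMPT and QPRT, of nicotinamide nucleotide synthesis, differed by -0.21 ± 0.28 and -0.70 ± 0.26 (limma's adjusted p = 0.805 and 0.282, with the block 0.462 and 0.0539). HPRT1, the purine salvage enzyme, named after its values were seen, averaged 2760 ± 764 in zebularine and 1679 ± 400 in untreated cultures. It was higher in each pair, by 0.65, 0.39 and 1.06 (limma's adjusted p = 0.324, with the block 0.0700). All 8 tested genes of purine synthesis beyond PRPP had negative differences, with a median of -0.24 and a range from -0.63 to -0.03. PAICS, a bifunctional enzyme of that route, differed by -0.63 ± 0.30, and ATIC, which closes the purine ring, by -0.15 ± 0.25 (limma's adjusted p = 0.414 and 0.846).

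Upper glycolysis, which shares fructose 6-phosphate and glyceraldehyde 3-phosphate with the non-oxidative branch, had 7 of 9 tested genes lower and a median of -0.29. ALDOA, an aldolase, differed by -0.24 ± 0.27 and TPI1, the triose phosphate isomerase, by -0.61 ± 0.29 (limma's adjusted p = 0.757 and 0.413). The lowest was the liver-type phosphofructokinase gene PFKL, chosen after its value was seen, at -0.78 ± 0.27 (limma's adjusted p = 0.260, with the block 0.0721).

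Other sources of cytosolic NADPH were also not called. IDH1, the cytosolic isocitrate dehydrogenase, differed by -0.38 ± 0.27 and MTHFD1, a folate enzyme, by -0.08 ± 0.26, and the median of 3 tested genes was -0.22. Of 9 tested targets of NRF2, a transcription factor of the oxidative stress response known to induce pentose phosphate genes, 6 were lower, with a median of -0.21. AKR1C1, an aldo-keto reductase, differed by -0.21 ± 0.31 and TXNRD1, a thioredoxin reductase, by -0.05 ± 0.30 (limma's adjusted p = 0.831 and 0.970). GCLC, the catalytic subunit for the first step of glutathione synthesis, was the lowest at -0.91 ± 0.32 (limma's adjusted p = 0.257, with the block 0.0506), and was picked out after its value was seen.

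**Figure D3:**
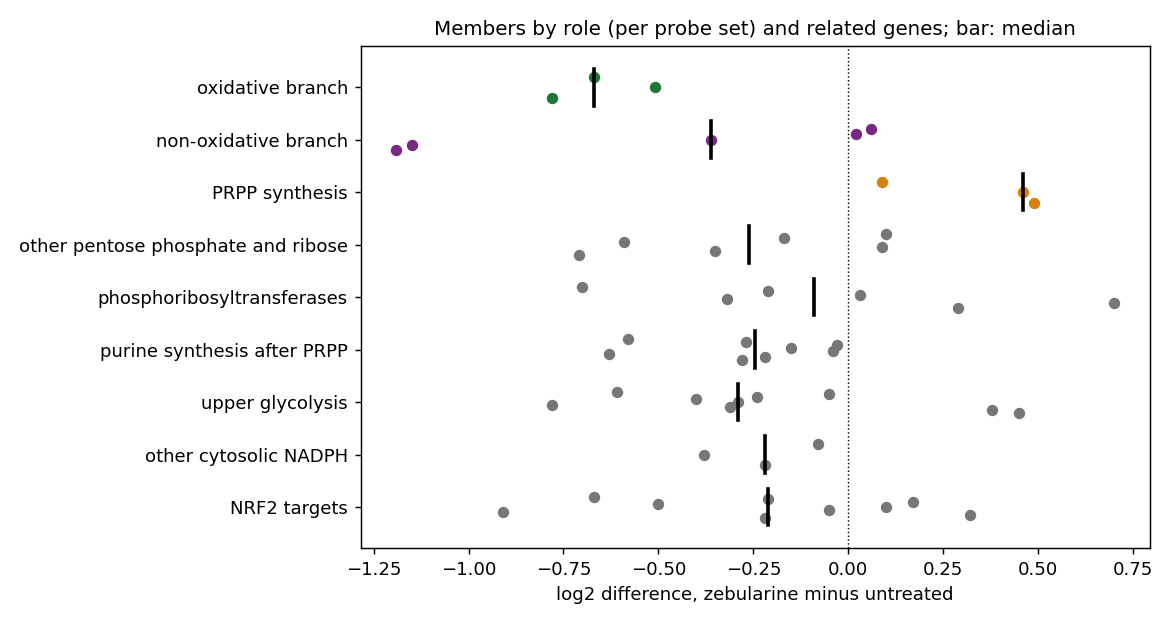
Log2 difference (horizontal axis, zebularine minus untreated) of the tested member probe sets by role (coloured) and of the tested genes of 6 related lists (grey, 1 point per gene), with the median of each as a black bar. The TKT probe sets lie at -1.19 and -1.15, below every gene of the related lists, whose lowest is GCLC at -0.91.

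The genes whose log2 signals followed a member most closely over the 6 arrays were found by Pearson's r, for the probe set with the highest mean signal in each role. For PGD these were PXMP2, MCM5 and IMPA2 (r = 0.977, 0.973 and 0.967). For TALDO1 they were PARD3, WDR46 and AKIRIN2 (r = 0.987, 0.983 and 0.979), and for PRPS1 at 209440_at they were NUP37, EIF2S1 and ADARB1 (r = 0.994, 0.993 and 0.991). Each is the top of a search over all tested genes on 6 arrays that share their groups, and describes likeness alone.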

How the data were processed

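Total RNA of 3 zebularine and 3 untreated A-498 cultures was measured on 1 Affymetrix array each. The deposited file holds 1 linear intensity per probe set and array, made with MAS5 per the submitters' processing notes, whose version was not given in the sources used here. On each array the mean of the deposited intensities between the 2nd and 98th percentile was 499.1 to 499.8. No further scaling was applied.

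Gene names came from the platform annotation, which gave 19070 of 22277 probe sets 1 symbol, 1043 several and 2164 none; 19058 of the single symbols were matched by Entrez number to RefSeq, which changed 0. Values were taken as log2(signal + 16.34), the pseudocount being the median of all values divided by 8. After 62 controls were left out, 13548 probe sets with a signal of at least 78.5, the 40th percentile, on at least 3 arrays entered a two-sided limma fit (version 3.58.1, R 4.3.3, lmFit and eBayes with trend). The p-values were adjusted by Benjamini-Hochberg over all of them, with a call at an adjusted p under 0.05. Precision is limited by the 6 arrays. The fit without the block was tried on simulated arrays drawn independently of each other, and no result here rests on that trial.

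The members and the related lists were chosen with earlier results of these data known. All members are named; of each related list, the called genes or, with none called, the 2 with the highest mean signal are named, and others are said to have been picked after their values were seen. Same-numbered arrays deviated together from their group means (correlations across probe sets of 0.323, 0.211 and 0.272 in replicates 1, 2 and 3), and the labels give them the same experiment name, so results with the replicate as a block are given where they change a call. No pair of arrays shared more than 0.198% of values. Alternatives changed the pseudocount, the filter, the normalization, the mean-variance trend and the arrays used. Start regions came from RefSeq (GRCh38.p14). Plots were made in Python 3.11.15 with matplotlib 3.10.9.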

Additional observations from a re-analysis of the deposited data

How the results depend on the processing

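Over all tested probe sets limma called 84 without the block. It called 573 with the replicate block, 55 with a smaller pseudocount of 4.08, 42 with no filter on low signals and 6 without the mean-variance trend. With arrays left out it called 0 (without zebularine 2, where 1315 had an unadjusted p under 0.05) to 96. Of the members, 3 were called with the replicate block, and 0 with the smaller pseudocount, without the filter or without the trend. In the latter settings 4, 4 and 3 members had an unadjusted p under 0.05, against 1678, 2148 and 1533 over all probe sets. Quantile normalization and a larger pseudocount of 65.35 left both TKT probe sets called. With single arrays left out 0 or 1 members were called, and 2 to 7 had an unadjusted p under 0.05. Over all tested probe sets 1201 (without untreated 3) to 2157 (without untreated 2) had one. The TKT differences ran from -1.28 to -1.05 at 208699_x_at and from -1.23 to -1.05 at 208700_s_at over 13 alternatives, and were called in 4 and 3 of them. PGD, called with the block alone, ran from -0.99 to -0.53. The median of PRPP synthesis ran from 0.23 (without untreated 1) to 0.67 (without untreated 2), and the medians of the 2 branches moved by less than the spread between pairs in each alternative. The near-zero differences of RPIA (-0.13 to 0.30), RPE (-0.22 to 0.32) and PRPS2 (-0.02 to 0.19) changed sign 8 times in all, each with arrays left out, and no member's difference changed sign in an alternative with all arrays. Leaving out both arrays of replicate 3, chosen after seeing the data, gave 3 calls over all probe sets and 0 among the members. At an unadjusted p under 0.05 there were 907 over all probe sets and 2 among the members. TKT was then at -1.05 at both probe sets, PGD at -0.53 and RPIA at -0.08. Causes were not tested. Signals near or below the filter level, such as those of TKTL1, were not tested, so their differences have no test behind them.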
